A study of Homo sapiens with 12 samples.

Results

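The nuclear pore genes are 31 genes that encode proteins of the nuclear pore complex, chosen by symbol among the 57820 genes of the count table. All 31 were found, and all 31 passed the filter on low counts, which left 21270 genes for testing. The 3 human cell lines are JVM3, HG3 and MEC1, whose labels give chronic lymphocytic leukaemia, a cancer of B cells, as their type, and each was studied with mutant and with wild-type U1. The mutant cells carry the g.3A>C change in U1, at nucleotide 3 of the small nuclear RNA, and the wild-type cells of the same line are what they are compared with. The 6 groups are therefore JVM3 mutant, HG3 mutant, MEC1 mutant, JVM3 wild type, HG3 wild type and MEC1 wild type, with 2 technical replicates each and 12 libraries in all. The labels do not say how the mutation was introduced or whether a mutant line is 1 clone.

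The nuclear pore complex is the channel through which protein and RNA cross the nuclear envelope. An outer ring (the Y complex) and an inner ring form its scaffold, a membrane ring anchors it in the envelope, and proteins with phenylalanine-glycine repeats fill the central channel. Filaments on the cytoplasmic face finish the export of messenger RNA, and a basket on the nuclear face receives cargo. U1 small nuclear RNA pairs with the 5′ splice site at the start of an intron, so a change near its 5′ end can change which exons are joined.

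Libraries held 29880079 to 39716818 counts assigned to genes, and the 6 junction columns, 1 per line and U1 status, held 15537369 to 17917160 reads over 170723 junctions. RNU1-1, a U1 gene, had 54.1 and 54.3 CPM (counts per 1000000 counts) in JVM3 mutant, 249 and 163 in HG3 mutant and 25.4 and 24.2 in MEC1 mutant libraries, against 40 and 40.5 in JVM3 wild type, 29.3 and 28.8 in HG3 wild type and 13.1 and 12.7 in MEC1 wild type. These counts do not show which base stands at nucleotide 3. The 6 B cell markers summed to 1615 to 2016 CPM in mutant and 1675 to 2090 in wild-type libraries. The 3 surface markers of chronic lymphocytic leukaemia, CD5, FCER2 and ROR1, summed to 189 to 724 CPM in mutant and 195 to 774 in wild-type libraries. CD5 had 40.3 to 42.1 CPM in HG3 libraries, but at most 0.474 in JVM3 and 0.115 in MEC1. ROR1 had 16.6 to 18.5 CPM in HG3 libraries, but at most 0.705 in JVM3 and 0.345 in MEC1. The T cell, myeloid, NK cell, epithelial and fibroblast lists each stayed at or under 4.96 in mutant and 3.95 in wild-type libraries, with CD3G at 0 in all.

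Across the 3 lines, 3 of the 31 nuclear pore genes fell in mutant cells and 0 rose, while 28 did not pass the test. The genes that fell were NUP37, NUP210 and NUP88, one each from the outer ring, the membrane ring and the cytoplasmic face. Of all 21270 tested genes, 3.69% passed, 1.86% falling and 1.83% rising, by the same test, edgeR's quasi-likelihood F-test with the line as the unit (n = 3 lines per status) and a Benjamini-Hochberg adjusted p under 0.05. The median log2 fold change was -0.05 over the nuclear pore genes and -0.01 over all tested genes. At an unadjusted p under 0.05, 7 members were lower and 1 was higher, where 11.5% of all tested genes were lower and 10.3% higher. DESeq2 called 4 members lower and 1 higher, and of the 15598 genes with an adjusted p it called 5.21% lower and 3.25% higher. The call for each of the 3 genes was lost when at least 1 line was left out, as given beside each gene.

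**Figure D1:**
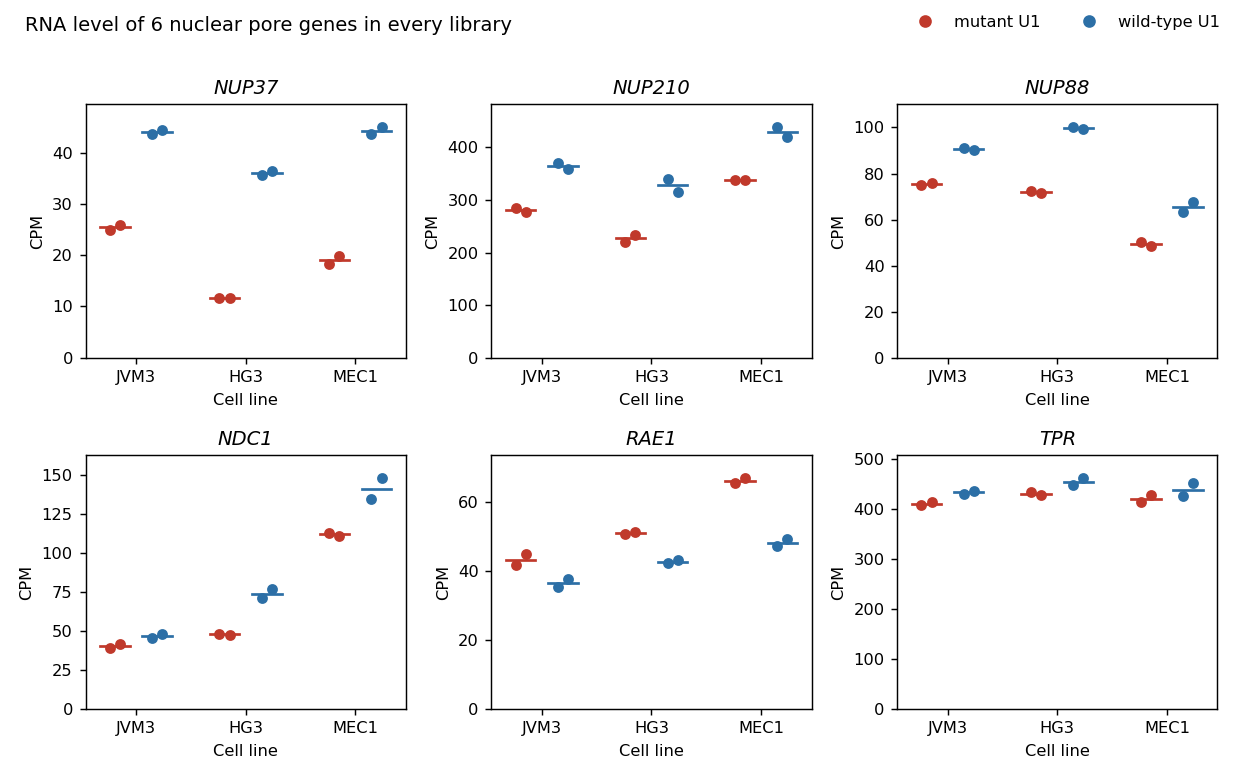
CPM (vertical axes from 0) of 6 nuclear pore genes in every library, by cell line. Points are technical replicates, short lines their means, red mutant and blue wild-type U1; NUP37, NUP210, NUP88 and NDC1 are lower and RAE1 higher in the mutant libraries of every line, while TPR did not pass the test in any line.

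NUP37, a subunit of the outer ring, fell to 18.7 ± 6.96 CPM in mutant cells, against 41.5 ± 4.69 CPM in wild-type cells (SD over lines, n = 3 each; CPM of members are scaled with TMM factors). In JVM3 it had 25 and 25.9 CPM in mutant and 43.7 and 44.5 CPM in wild-type libraries. HG3 had 11.6 and 11.6 CPM in mutant and 35.7 and 36.4 CPM in wild-type libraries. Every mutant library lay below every wild-type library, with the highest mutant value at 25.9 CPM and the lowest wild-type value at 35.7 CPM. In MEC1 the values were 18.3 and 19.9 CPM in mutant and 43.7 and 44.9 CPM in wild-type libraries. Mutant cells thus held 57.7% of the wild-type level in the JVM3 line, 32.2% in the HG3 line and 43.1% in the MEC1 line. The log2 fold change was -1.21 (SE 0.24 over lines, edgeR adjusted p = 0.0121), the lowest of the 31 members in the fit across lines and in each line. Without MEC1 the adjusted p was 0.0595 at a log2 fold change of -1.20, and the call held without JVM3 (0.0192) and without HG3 (0.00553). The size of the fall differed between lines by edgeR's interaction test (adjusted p = 1.23e-09 over technical replicates).

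The same gene held the largest mean change in junction use among the tested junctions of the 31 genes. An exon of 158 bases between 2 coding exons, a cassette exon at chr12:102472837-102472994 (hg19, minus strand), was joined far more often in mutant cells. Its inclusion, from the mean of its entry and exit reads against the reads that skip it, was 13.4% in JVM3 mutant, 33.8% in HG3 mutant and 26.8% in MEC1 mutant cells. Inclusion in JVM3 wild-type cells was 1.39%, and it was 0.905% in HG3 wild-type and 0.467% in MEC1 wild-type cells. No mutant column overlapped the wild-type columns, and the means were 24.7% ± 10.4 in mutant and 0.921% ± 0.462 in wild-type cells (SD over lines, n = 3 each).

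The reads behind these shares were few, so single columns carry wide intervals. At the acceptor at base 102471281, the junction that leaves the cassette exon, chr12:102471281-102472837, had 18 of 154 reads in JVM3 mutant cells (11.7%, 95% Wilson interval 7.52 to 17.7) and 5 of 288 in JVM3 wild-type cells (1.74%, 0.744 to 4). In HG3 it had 24 of 68 reads in mutant (35.3%, 25 to 47.2) and 3 of 222 in wild-type cells (1.35%, 0.461 to 3.9). MEC1 showed 37 of 134 reads in mutant (27.6%, 20.7 to 35.7) and 1 of 321 in wild-type cells (0.312%, 0.055 to 1.74). In each line the mutant interval lay above the wild-type interval, and the mean change was 23.7 percentage points (edgeR diffSpliceDGE, adjusted p = 6.12e-06). The call held when any 1 line was left out, but a limma test on log2 ratios gave an adjusted p of 0.076. The competing junction, which skips the exon, took 75.1% ± 12 of the acceptor's reads in mutant and 98.9% ± 0.737 in wild-type cells. Across lines the inclusion and the fall in RNA had the same order, with HG3 ahead of MEC1 and MEC1 ahead of JVM3 in both. This is a description of 3 lines with no test.

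The sequences at the join show what the exon adds to the reading frame, and they come from the transcripts of GENCODE release 29 on GRCh38, where the exon lies at chr12:102079059-102079216 (minus strand) in a transcript annotated as a target of nonsense-mediated decay. In the first 2 lines the lower-case letters are the last 18 bases of the upstream coding exon, and the capitals are the first 12 bases that follow it in each form. In the last 2 lines the capitals mark the last 3 bases of an exon, its share of the 5′ splice site.
NUP37, upstream exon joined to the cassette exon: cctgaggagacttttaagATATGAAAGATA
NUP37, upstream exon joined to the next coding exon: cctgaggagacttttaagCTAATGGTTGCA
NUP37, end of the cassette exon: cactgcttaAAA
NUP37, end of the upstream exon: gagacttttAAG
The upstream exon ends after 180 whole codons, so the cassette exon begins in frame and its bases from the fourth on read TGA, a stop codon. The open reading frame of the cassette form thus meets a stop at codon 182, while the annotated coding sequence without the exon has 326 codons and no stop within. The bases of the introns themselves were not used here.

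**Figure D2:**
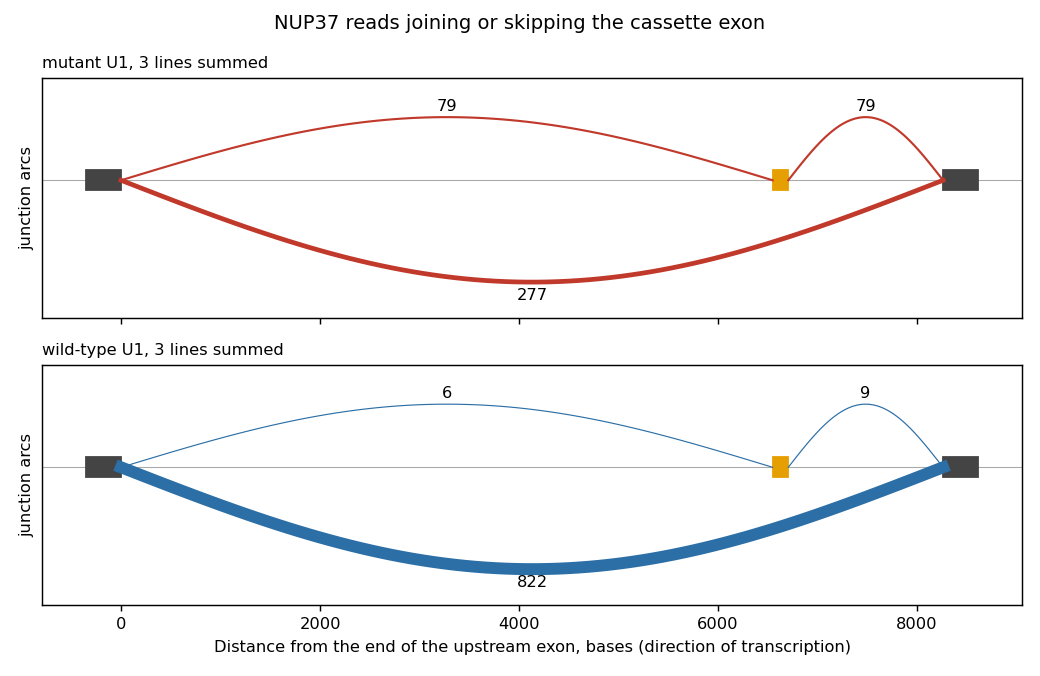
Reads of the 3 junctions around the NUP37 cassette exon (orange), summed over the 3 lines, with mutant U1 above and wild-type U1 below; the horizontal axis is the distance in bases from the end of the upstream exon, dark boxes are the neighbouring coding exons (length not to scale) and line width grows with the read count. The joining arcs carry 79 and 79 reads in mutant and 6 and 9 in wild-type cells, and the skipping arc 277 in mutant and 822 in wild-type cells.

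The other 8 outer ring genes moved much less, between -0.15 and 0.12 on the log2 scale across lines, and none of the 8 passed the test. Tests within lines measure only the spread between technical replicates. By them 0 of the 9 outer ring genes rose and 2 fell in JVM3, where of all tested genes 22.4% passed, 10.4% rising and 12% falling. HG3 gave 1 that rose and 6 that fell (38.3% of all tested genes passed, 18.7% rising and 19.6% falling), and MEC1 gave 3 of each (36.6%, with 18% rising and 18.6% falling). Groups of 2 technical replicates that do not overlap say little by themselves. NUP93 in JVM3 did not overlap, with 109 and 109 CPM in mutant and 108 and 108 in wild-type libraries (within-line adjusted p = 0.897). The share of all tested genes without overlap was not computed.

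NUP133 and NUP107, which bind each other in the stem of the Y complex, fell in 2 lines each by edgeR's within-line test. NUP133 had 69.5 and 73.5 CPM in JVM3 mutant, 72 and 74.7 in HG3 mutant and 90.5 and 92.7 in MEC1 mutant libraries, against 73.2 and 77.9 in JVM3 wild type, 84.9 and 84 in HG3 wild type and 99.6 and 103 in MEC1 wild type. The groups overlapped in JVM3 only, and the adjusted p within lines was 0.229 for JVM3, 0.000248 for HG3 and 0.00578 for MEC1. NUP107 had 90.6 and 90.9 CPM in JVM3 mutant, 59.3 and 62.4 in HG3 mutant and 104 and 112 in MEC1 mutant libraries, against 98.5 and 98.6 in JVM3 wild type, 71.7 and 72.3 in HG3 wild type and 106 and 115 in MEC1 wild type. It was lower without overlap in JVM3 (adjusted p = 0.0487) and HG3 (4.09e-05), and overlapped in MEC1 (0.586), a difference between lines with an adjusted p of 0.0323. Leaving out 1 library ended the NUP133 call in MEC1 (0.0546 without mutant replicate 1, 0.0757 without wild-type replicate 2) and, for 6 of the 12 libraries, the NUP107 call in JVM3 (0.0643 to 0.184). The NUP107 value in MEC1 turned to 0.02 without mutant replicate 1 and to 0.03 without wild-type replicate 2.

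SEH1L, which also serves the amino acid sensing complex GATOR2, fell in HG3 and MEC1, and AHCTF1 (ELYS), which brings the Y complex to chromatin after mitosis, rose in those lines. SEH1L had 75.8 and 81.2 CPM in JVM3 mutant, 61.7 and 60.5 in HG3 mutant and 55.8 and 56.7 in MEC1 mutant libraries, against 80.6 and 81.7 in JVM3 wild type, 70.1 and 74.7 in HG3 wild type and 62.6 and 63.8 in MEC1 wild type. The JVM3 libraries overlapped, and the log2 fold change was -0.05 there, -0.24 in HG3 (adjusted p = 3.07e-05) and -0.17 in MEC1 (0.00357). AHCTF1 had 132 and 140 CPM in JVM3 mutant, 123 and 129 in HG3 mutant and 155 and 175 in MEC1 mutant libraries, against 128 and 134 in JVM3 wild type, 114 and 116 in HG3 wild type and 147 and 156 in MEC1 wild type. Its mutant and wild-type values were apart only in HG3 (adjusted p = 0.0216) and overlapped in MEC1 (0.0388), where 1 library decided the call (0.622 without mutant replicate 2, 0.294 without wild-type replicate 1, 0.0618 without wild-type replicate 2 of HG3). The AHCTF1 call for HG3 was lost as well without mutant replicate 2 (0.21), wild-type replicate 1 (0.159) or wild-type replicate 2 (0.0715), and DESeq2 called it in neither line (0.094 for HG3, 0.112 for MEC1).

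The remaining outer ring genes showed no shared direction. NUP160 rose in MEC1 (0.32, adjusted p = 1.39e-08), and its values in JVM3 and HG3 were 0.05 and -0.02. NUP85 fell in HG3 (-0.20) and rose in MEC1 (0.17), and the responses differed between lines (interaction adjusted p = 6.13e-05). NUP43 passed in no line, with log2 fold changes of 0.04 to 0.10, but did pass in MEC1 without wild-type replicate 2 (adjusted p = 0.0215). SEC13, which is also a coat protein of vesicles that leave the endoplasmic reticulum, fell in HG3 alone among the within-line tests (-0.13, adjusted p = 0.0118), a call lost without HG3 mutant replicate 1 (0.0937).

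In the inner ring, 2 of 5 genes, NUP155 and NUP205, were lower in all 3 lines, and neither passed across lines. Of all tested genes, 21.8% were lower in every line by sign alone, and 4.65% fell in every line by the within-line test. NUP155 helps tie the scaffold to the membrane. It had 85.3 and 88.2 CPM in JVM3 mutant, 91.6 and 89.7 in HG3 mutant and 185 and 196 in MEC1 mutant libraries, against 98.4 and 99.8 in JVM3 wild type, 108 and 113 in HG3 wild type and 208 and 222 in MEC1 wild type. Within each line mutant libraries lay below wild-type libraries, and the fold change across lines was -0.22 (SE 0.03, adjusted p = 0.137). NUP205, a large scaffold protein, had 195 and 195 CPM in JVM3 mutant, 171 and 170 in HG3 mutant and 220 and 229 in MEC1 mutant libraries, against 217 and 217 in JVM3 wild type, 219 and 228 in HG3 wild type and 242 and 259 in MEC1 wild type. It too was lower in every line without overlap, with -0.24 across lines (SE 0.08, adjusted p = 0.147), and more so in HG3 (-0.39) than in JVM3 (-0.15) or MEC1 (-0.16; interaction adjusted p = 0.000362). Without wild-type replicate 2 of MEC1, its MEC1 adjusted p was 0.052. NUP93, NUP188 and NUP35 lay between -0.04 and 0.05 across lines. In MEC1 NUP93 rose (0.15) and so did NUP35 (0.17), calls that were lost for NUP93 without MEC1 wild-type replicate 1 (0.055) and for NUP35 without mutant replicate 2 (0.271), without wild-type replicate 1 (0.204) and with DESeq2 (0.178).

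The 4 genes of the central channel list gave 0 calls across lines, and 0 of them had an unadjusted p under 0.05 or passed with DESeq2. NUP54 and NUP58, which form the channel's core with NUP62, both fell in HG3. NUP54 had 44 and 47 CPM in JVM3 mutant, 43 and 40.6 in HG3 mutant and 62.2 and 60.9 in MEC1 mutant libraries, against 49.3 and 50.7 in JVM3 wild type, 49.9 and 49.5 in HG3 wild type and 62.1 and 67.2 in MEC1 wild type. Its mutant libraries were lower without overlap in JVM3 (adjusted p = 0.0598) and HG3 (0.000147), and overlapped by a small margin in MEC1 (0.299). Without wild-type replicate 1 or 2 of MEC1, the JVM3 value passed (0.045 and 0.0473). NUP58 had 133 and 142 CPM in JVM3 mutant, 95.9 and 96.9 in HG3 mutant and 146 and 154 in MEC1 mutant libraries, against 145 and 154 in JVM3 wild type, 108 and 110 in HG3 wild type and 132 and 138 in MEC1 wild type. The direction was not shared, since NUP58 fell in JVM3 (-0.12, adjusted p = 0.0327) and HG3 (-0.18) and rose in MEC1 (0.15), with an interaction adjusted p of 2.95e-05. The JVM3 call for NUP58 was lost with DESeq2 (0.107) and without mutant replicate 1 (0.435) or wild-type replicate 2 (0.42), the MEC1 call without mutant replicate 2 (0.0569), and without HG3 its value across lines was 0.01, against -0.05 with all lines. NUP62 also fell in HG3 (-0.16) and rose in MEC1 (0.43), and its JVM3 value was 0.10, which did not pass (interaction adjusted p = 3.87e-09), though its HG3 call was lost without mutant replicate 1 (0.0547) or wild-type replicate 1 (0.107), while NUP98 rose in MEC1 (0.21). Up to 12% of the exon bases of NUP62 lie in exons of other genes on its strand and 10.4% in exons on the other strand, and the sources used here do not give the strand setting of the counts.

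On the cytoplasmic face, NUP88 fell and RAE1, which did not pass across lines, was higher in every line. NUP88, which holds NUP214 at the pore, had 75 and 76 CPM in JVM3 mutant, 72.4 and 71.7 in HG3 mutant and 50.3 and 48.5 in MEC1 mutant libraries, against 91 and 90 in JVM3 wild type, 100 and 99.5 in HG3 wild type and 63.4 and 67.7 in MEC1 wild type. Mutant libraries lay below wild-type libraries of the same line throughout, at 83.4% of the wild-type level for JVM3, 72.2% for HG3 and 75.4% for MEC1. The log2 fold change was -0.38 (SE 0.06, adjusted p = 0.0414), and the call was lost without JVM3 (0.0933), HG3 (0.131) or MEC1 (0.115). Of the exon bases of NUP88, 18.7% lie opposite exons of RABEP1 and RPAIN, whose own log2 fold changes across lines were -0.01 (adjusted p = 0.964) and 0.04 (0.845).

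RAE1, a partner of NUP98 in mRNA export, was the only member that rose in every line by the within-line test, against 4.34% of all tested genes. It had 41.5 and 44.7 CPM in JVM3 mutant, 50.7 and 51.2 in HG3 mutant and 65.5 and 66.7 in MEC1 mutant libraries, against 35.3 and 37.5 in JVM3 wild type, 42.3 and 43 in HG3 wild type and 47 and 49.2 in MEC1 wild type. No line overlapped. The log2 fold change was 0.24 for JVM3, 0.26 for HG3, 0.46 for MEC1 and 0.32 across lines (SE 0.07, adjusted p = 0.0782 by edgeR and 0.0471 by DESeq2). GLE1, which activates the helicase that releases exported mRNA, had 58.6 and 61.4 CPM in JVM3 mutant, 79.2 and 77.7 in HG3 mutant and 129 and 125 in MEC1 mutant libraries, against 60.9 and 61.7 in JVM3 wild type, 85 and 86 in HG3 wild type and 136 and 142 in MEC1 wild type. It was lower without overlap in HG3 (adjusted p = 0.019) and MEC1 (0.00962), and overlapped in JVM3 (0.704). Both GLE1 calls were lost with 1 library left out, in HG3 without mutant replicate 2 (0.12) or wild-type replicate 2 (0.0764) and in MEC1 without mutant replicate 2 (0.123) or wild-type replicate 2 (0.132). RANBP2, the large filament protein, rose in HG3 (0.26, adjusted p = 2.15e-07), and so did NUP42 (0.17, 0.00584). The NUP42 call was lost without mutant replicate 2 (0.0642) or wild-type replicate 1 (0.2) of HG3 and with DESeq2 (0.0578). NUP214 passed in no line.

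In the nuclear basket, NUP50 fell in every line within lines and did not pass across lines. NUP50, which helps importins release their cargo, had 153 and 153 CPM in JVM3 mutant, 146 and 143 in HG3 mutant and 162 and 168 in MEC1 mutant libraries, against 165 and 164 in JVM3 wild type, 176 and 181 in HG3 wild type and 193 and 199 in MEC1 wild type. The groups were apart in each line, at -0.11 in JVM3 (adjusted p = 0.0353), -0.30 in HG3 and -0.25 in MEC1, and the value across lines was -0.22 (SE 0.06, adjusted p = 0.151). The JVM3 call was lost with DESeq2 (0.0702) and, for 6 of the 12 libraries, when that library was left out (0.0586 to 0.173). TPR, the main fibre of the basket, stood at 420 ± 9.67 CPM in mutant and 442 ± 11.2 CPM in wild-type cells (SD over lines, n = 3 each), with log2 fold changes of -0.06 to -0.08 that passed in no line. The HG3 value of TPR passed, however, with DESeq2 (0.0472) and when any of 9 of the 12 libraries was left out (0.0201 to 0.0428), and its MEC1 value passed without MEC1 wild-type replicate 1 (0.0444). NUP153 passed in HG3 alone (-0.10, adjusted p = 0.0369), and not without any 1 of the 4 HG3 libraries (0.0592 to 0.128).

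The membrane ring held the second gene that fell, NUP210, and NDC1 close behind it. NUP210 spans the nuclear envelope with most of its length in the lumen. Its libraries had 285 and 277 CPM in JVM3 mutant, 221 and 234 in HG3 mutant and 339 and 339 in MEC1 mutant cells, against 370 and 359 in JVM3 wild type, 340 and 316 in HG3 wild type and 438 and 419 in MEC1 wild type. Mutant libraries were lower in each line with no overlap, at 77.1% of wild type for JVM3, 69.4% for HG3 and 79.1% for MEC1. Across lines the log2 fold change was -0.42 (SE 0.06, adjusted p = 0.0325), and the call was lost without JVM3 (0.109) and without HG3 (0.118).

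NDC1, a membrane anchor of the pore, had 39.1 and 41.4 CPM in JVM3 mutant, 48 and 47.6 in HG3 mutant and 113 and 111 in MEC1 mutant libraries, against 45.6 and 47.9 in JVM3 wild type, 71.2 and 76.8 in HG3 wild type and 135 and 148 in MEC1 wild type. Each line was lower in mutant cells with no overlap, and HG3 (-0.63) more than MEC1 (-0.34) or JVM3 (-0.22; interaction adjusted p = 3.56e-05). Across lines NDC1 stood at -0.40 (SE 0.12) with an adjusted p of 0.0566 by edgeR, and 0.0198 by DESeq2. With 1 library left out, the edgeR value passed for 8 of the 12 libraries (0.0414 to 0.0496). Its JVM3 call was lost without mutant replicate 1 (0.0636) or wild-type replicate 2 (0.0682). POM121, another membrane anchor, ran the other way. It had 36.6 and 37.5 CPM in JVM3 mutant, 45.2 and 50.2 in HG3 mutant and 62.7 and 65.4 in MEC1 mutant libraries, against 35.9 and 35.3 in JVM3 wild type, 43.5 and 41.8 in HG3 wild type and 52.4 and 49.1 in MEC1 wild type. All 3 lines were higher without overlap, with an adjusted p of 0.535 for JVM3, 0.017 for HG3 and 8.7e-07 for MEC1. The HG3 call was lost without mutant replicate 2 (0.45) or wild-type replicate 2 (0.14) and with DESeq2 (0.107). The POM121 counts are uncertain, because the near-identical copy POM121C shares its sequence and 18.9% of its exon bases lie opposite exons of other genes. AAAS passed in no line, but its HG3 value (-0.13, adjusted p = 0.058) did so when any of 8 libraries was left out (0.0319 to 0.0493).

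**Figure D3:**
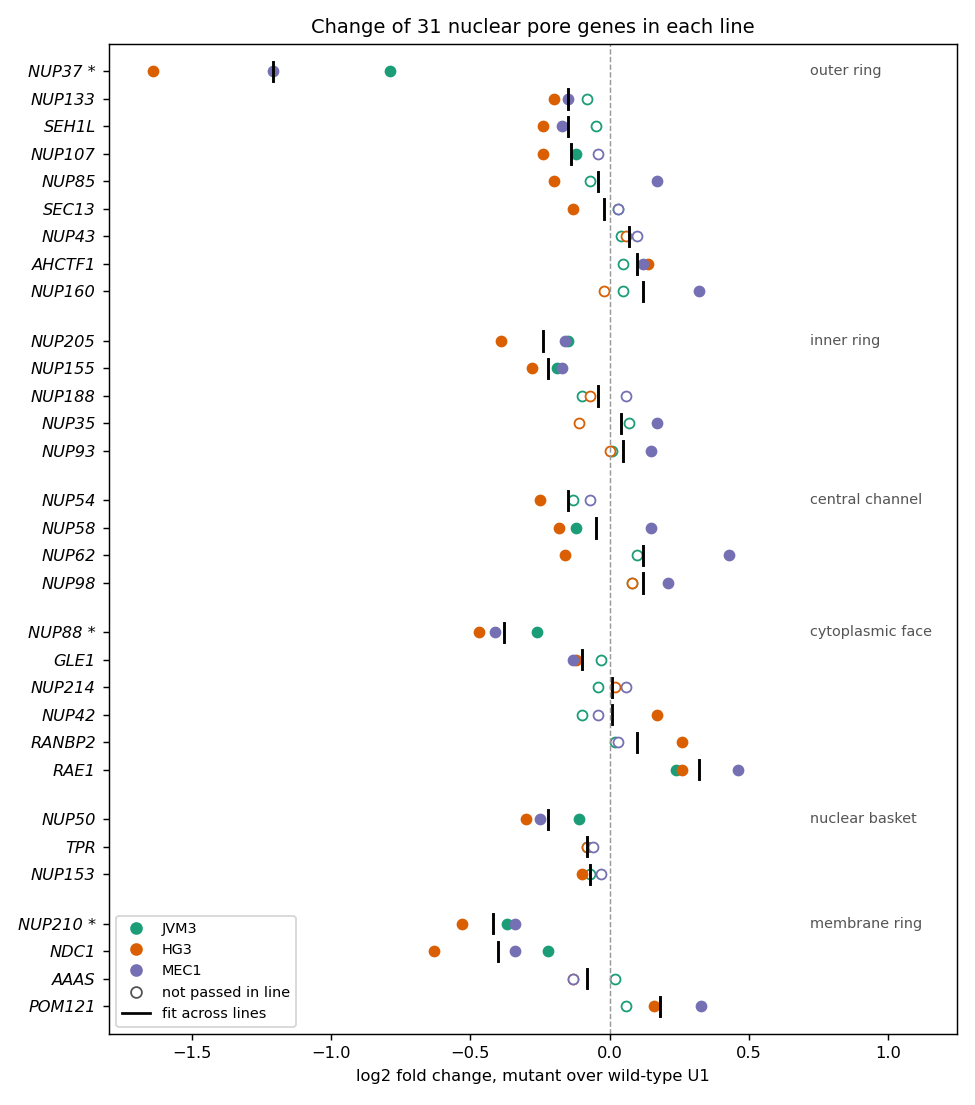
Log2 fold change of mutant over wild-type U1 (horizontal axis) for the 31 nuclear pore genes, grouped by place in the pore. Filled points passed the within-line test, open points did not, black ticks are the fit across lines and asterisks mark the 3 genes that fell across lines; HG3 points are the leftmost for 21 of the 31 genes.

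Over all 31 nuclear pore genes, the tests within lines gave 1 that rose and 9 that fell for JVM3 (all tested genes: 10.4% rising, 12% falling). For HG3 the members split into 5 that rose and 17 that fell (18.7% and 19.6% of all tested genes). MEC1 had 10 of each, where the shares of all tested genes were 18% rising and 18.6% falling. Of the 31, 7 fell in every line, which 4.65% of all tested genes did, namely NUP37, NUP155, NUP205, NUP88, NUP50, NDC1 and NUP210. In at least 2 lines 12 fell and 3 rose, against 14% and 12.2% of all tested genes. By sign alone, with no test, 14 were lower and 6 were higher in every line (21.8% and 20.9% of all tested genes). HG3 had the lowest fold change of the 3 lines for 21 of the 31 genes (67.7%), where over all tested genes HG3 was the lowest for 33.1%. MEC1 had the highest for 18 genes (58.1%, against 34.5% of all tested genes). Member medians were -0.07 for JVM3, -0.13 for HG3 and -0.03 for MEC1, and the medians of all tested genes were -0.02, 0.01 and 0.00 for the same lines. More falls than rises in HG3 were not particular to the nuclear pore genes. In the lists given below, nuclear lamina and envelope genes had 8 that fell and 2 that rose in HG3 (median -0.18). The counts there were 7 and 4 for mRNA export (-0.09), 4 and 1 for exportins (-0.11), 4 and 0 for the Ran cycle (-0.06) and 7 and 3 for importins (-0.00). The response differed between lines for 18 of the 31 by edgeR's interaction test, against 32% of all tested genes. The shares of all tested genes, here and elsewhere, were not matched for RNA level. Members stood higher, with a wild-type median of 13.8 CPM per kb of exon against 2.45 over tested genes with a known length. Whether that level accounts for counts above the shares was not tested.

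In wild-type cells the nuclear pore genes stood above the typical tested gene. Their median level was 13.8 CPM per kb of exon, against 2.45 CPM per kb over tested genes with a known length. NUP210 had the highest level at 45.7 CPM per kb, followed by NUP153 at 37.8, TPR at 35.8 and RANBP2 at 32.3, and POM121 had the lowest at 4.38. Wild-type lines differed for 30 of the 31 genes, where 82.8% of all tested genes did so, and TPR was the exception (edgeR adjusted p = 0.134), although it passed without either MEC1 mutant replicate or without MEC1 wild-type replicate 2 (0.0131 to 0.0493). MEC1 was the highest line for 19 genes, and JVM3 and HG3 for 6 each. The ratio of the highest to the lowest line had a median of 1.37 and reached 3.03 for NDC1, with 27.6 CPM per kb in MEC1, 14.4 in HG3 and 9.1 in JVM3. GLE1 (2.27), NUP62 (2.25), NUP155 (2.17) and AAAS (2.07) came next in that ratio. NUP62 was highest in HG3, AAAS in JVM3, and the other 3 in MEC1. In bulk RNA of this kind, a difference in the number of expressing cells and one in RNA per cell cannot be told apart.

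**Figure D4:**
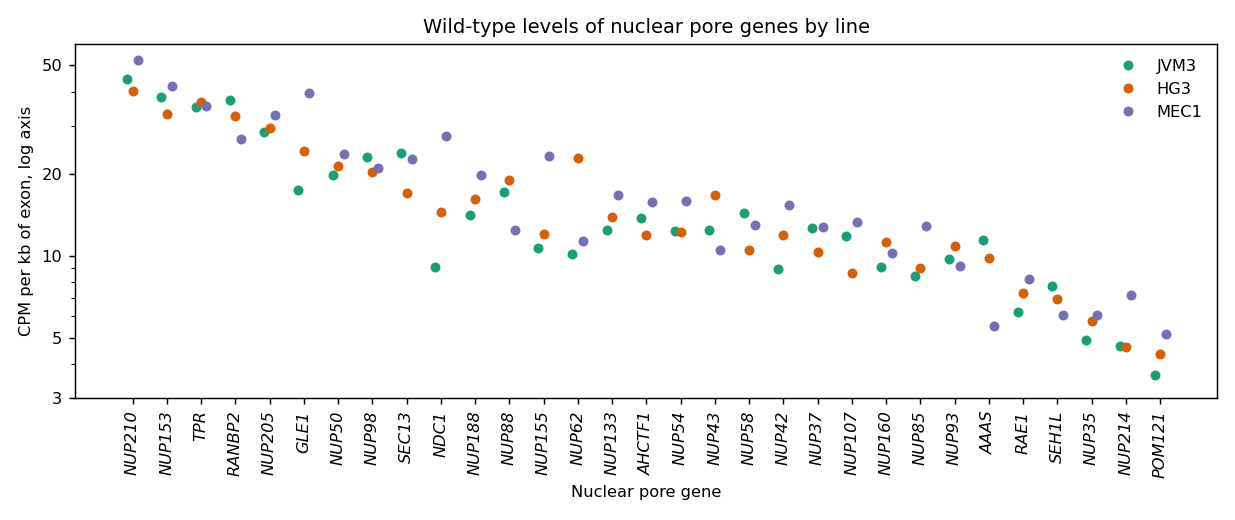
Wild-type level of each nuclear pore gene in CPM per kb of exon (vertical axis, log scale), 1 point per line as the mean of its technical replicates, genes ordered from NUP210 (45.7 on average) to POM121 (4.38). NDC1, GLE1, NUP62 and NUP155 show the widest gaps between lines, and TPR the narrowest.

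Junctions were next compared at shared acceptors, where each junction's reads are a percentage of all reads that end at the same 3′ splice site. Of the 724 junctions placed in the 31 genes, 398 are annotated, and 176 in 28 genes could be tested. A junction was called when the adjusted p was under 0.05, the mean change at least 5 points and the sign the same in every line. In the nuclear pore genes 7 of 176 were called (3.98%), 6 used more and 1 used less in mutant cells, where 2.78% of all 35857 tested junctions were called, 2% as used more and 0.784% as used less. The 7 lie in 7 genes, namely NUP37, NUP210, NUP35, SEC13, NUP54, NUP50 and NUP155. Of these 7, 2 were called without MEC1, 3 without HG3 and 5 without JVM3. With limma on log2 ratios 1 of the 7 was called, in NUP35, together with the junction it competes with. Grouping junctions by donor gave 5 calls, in NUP37, NUP35, NUP210, NUP54 and NUP155, and none in SEC13 or NUP50. The share of all junctions called by donor is not given here, so these 5 cannot be set against it. At a minimum of 50 reads, 95 junctions of the 31 genes could be tested and 7 were called (4.75% of the 18774 tested junctions of all genes were), 5 of them among the 7 above, while those of NUP35 and NUP155 had too few reads. The other 2 lie in NUP88 and SEC13 and are given with those genes.

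**Figure D5:**
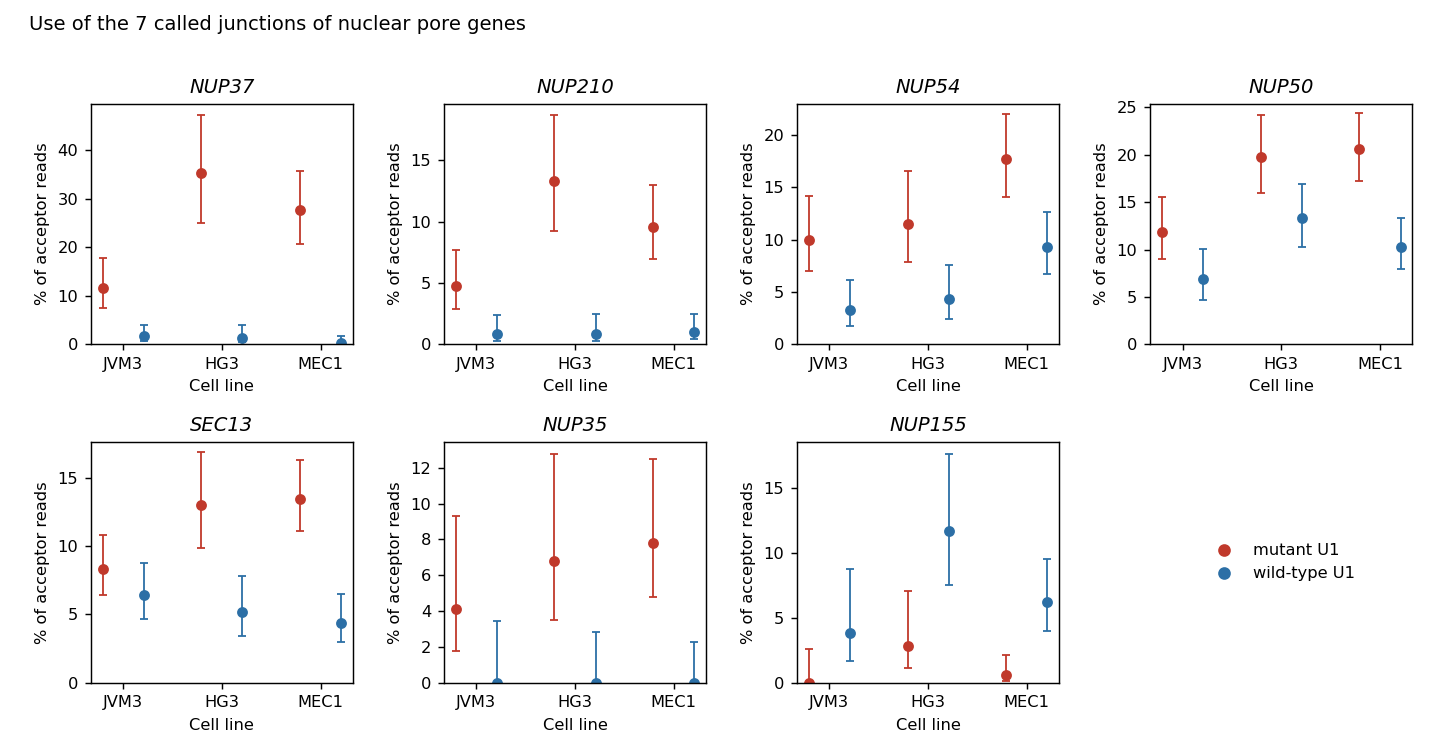
Share of the acceptor's reads (percent, vertical axes from 0) taken by each of the 7 called junctions in the 6 junction columns, with 95% Wilson intervals for counting error; red is mutant and blue wild-type U1. All 3 mutant points lie above the wild-type point of the same line in 6 panels and below it for NUP155.

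In NUP210 the called junction, chr3:13384803-13386361 (hg19, minus strand), starts at a donor that is not in the annotation, inside the intron that ends at base 13384803. It had 15 of 316 reads in JVM3 mutant (4.75%, 95% Wilson interval 2.9 to 7.68), 26 of 196 in HG3 mutant (13.3%, 9.22 to 18.7) and 36 of 376 in MEC1 mutant cells (9.57%, 7 to 13). JVM3 wild-type cells had 3 of 363 reads (0.826%, 0.281 to 2.4), HG3 wild-type cells 3 of 351 (0.855%, 0.291 to 2.48) and MEC1 wild-type cells 5 of 474 (1.05%, 0.451 to 2.45). No mutant interval overlapped its wild-type interval, and the mean change was 8.28 points (adjusted p = 2.16e-05). The call held without any 1 line, and limma gave 0.0617. The annotated junction across the whole intron, chr3:13384803-13393379, took 82.9% ± 6.71 of the acceptor's reads in mutant and 95.6% ± 1.53 in wild-type cells (SD over lines, n = 3 each). When junctions were grouped by donor, another unannotated junction of this intron, chr3:13389408-13393379, was called as well (6.03 points, adjusted p = 0.00644).

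NUP35, an inner ring protein that contacts the membrane, gained an exon of 47 bases that is not in the annotation, at chr2:184023359-184023405 (hg19, plus strand). Its inclusion was 3.73% in JVM3 mutant, 7.17% in HG3 mutant and 8.05% in MEC1 mutant cells, and 0% in all 3 wild-type lines. The junction that leaves it, chr2:184023405-184024216, had 5 of 121 reads in JVM3 mutant, 8 of 118 in HG3 mutant and 15 of 192 in MEC1 mutant cells, against 0 of 108 in JVM3 wild type, 0 of 133 in HG3 wild type and 0 of 165 in MEC1 wild type. A count of 0 allows a share of up to 2.78% in JVM3 wild type, 2.26% in HG3 wild type and 1.82% in MEC1 wild type (3 counts of the reads), and the mutant shares were 4.13% for JVM3, 6.78% for HG3 and 7.81% for MEC1. The change was 6.24 points (adjusted p = 0.00124), held without JVM3 (0.00807), without HG3 (0.0174) and in limma (0.044), and could not be tested without MEC1 for want of reads. Both junctions of this exon, and no other of the 724, had at least 3 reads in every mutant column and 0 in wild-type columns. Of all 170723 junctions, 163 (0.0955%) did so, and 25 (0.0146%) showed the mirror pattern, 0 of them in nuclear pore genes. The RNA level of NUP35 was 23.3 ± 3.66 CPM in mutant and 22.6 ± 2.42 CPM in wild-type cells (SD over lines, n = 3 each; log2 fold change 0.04, adjusted p = 0.862).

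NUP54 and NUP155 changed in the use of an annotated coding exon, in opposite directions. Both exons are printed from the GENCODE release 29 transcripts (GRCh38, minus strand), since their gain or loss is the change seen, and capitals mark the last 3 bases before the 5′ splice site. The NUP54 exon lies at chr4:76144149-76144292 and the NUP155 exon at chr5:37294329-37294465 on that build.
NUP54, exon of 144 bases: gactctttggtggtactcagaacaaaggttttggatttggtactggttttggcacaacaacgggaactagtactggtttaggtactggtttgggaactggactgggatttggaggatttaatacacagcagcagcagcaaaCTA
NUP155, exon of 137 bases: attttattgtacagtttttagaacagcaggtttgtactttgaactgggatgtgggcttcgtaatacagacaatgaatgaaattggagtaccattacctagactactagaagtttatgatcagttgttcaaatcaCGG
A length of 144 bases is a whole number of codons, so skipping the NUP54 exon keeps the frame, and 137 bases leave a remainder of 2, so skipping the NUP155 exon shifts it.

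The NUP54 exon was skipped more in mutant cells. The skipping junction, chr4:77057565-77065543 (hg19), took 27 of 269 acceptor reads in JVM3 mutant (10%), 24 of 208 in HG3 mutant (11.5%) and 63 of 356 in MEC1 mutant cells (17.7%), against 9 of 271 in JVM3 wild type (3.32%), 11 of 254 in HG3 wild type (4.33%) and 34 of 366 in MEC1 wild type (9.29%). Each line was higher in mutant cells, by 6.72, 7.21 and 8.41 points in JVM3, HG3 and MEC1, with intervals apart in all 3. The mean change was 7.44 points (adjusted p = 0.0107), and the call was lost without JVM3 (0.0838), HG3 (0.0926) or MEC1 (0.0691) and in limma (0.174). Inclusion averaged 87.7% ± 4.24 in mutant and 94.8% ± 2.99 in wild-type cells (SD over lines, n = 3 each).

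The NUP155 exon was skipped less. Its skipping junction, chr5:37293087-37298970 (hg19), which is not in the annotation, had 0 of 144 reads in JVM3 mutant, 4 of 141 in HG3 mutant and 2 of 335 in MEC1 mutant cells, against 5 of 129 in JVM3 wild type, 18 of 154 in HG3 wild type and 19 of 305 in MEC1 wild type. The 0 of JVM3 mutant allows a share of up to 2.08%. Mutant shares were lower in each line, and the intervals were apart in HG3 and MEC1 but overlapped in JVM3. Inclusion averaged 98.7% ± 1.7 in mutant and 92.8% ± 4.3 in wild-type cells (SD over lines, n = 3 each), and the junction changed by -6.12 points (adjusted p = 0.00438). Without HG3 the change was -4.75 points, under the 5 required, without MEC1 the adjusted p was 0.125, and limma gave 0.0751.

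NUP50 and SEC13 shifted between annotated junctions. The SEC13 junction chr3:10359778-10360823 (hg19, minus strand) took 8.35%, 13% and 13.4% of acceptor reads in JVM3, HG3 and MEC1 mutant cells, against 6.43%, 5.19% and 4.4% in the wild-type cells of the same lines. Its intervals were apart in HG3 and MEC1 and overlapped in JVM3, and the mean change was 6.25 points (adjusted p = 0.00844), lost without HG3 (0.134) or MEC1 (0.248) and in limma (0.279). The main SEC13 junction at this acceptor, chr3:10359778-10362734, took 85.2% in mutant and 91.8% in wild-type cells. Another SEC13 junction, chr3:10342831-10342937, named after its values were seen, missed the threshold at 13.8 points (adjusted p = 0.0595) and passed at a minimum of 50 reads (0.0498), with 24%, 14.2% and 22.1% in JVM3, HG3 and MEC1 mutant cells, against 0%, 6.67% and 12.3% in the wild-type cells of the same lines. In NUP50 the called junction, chr22:45567058-45567481 (hg19, plus strand), leaves an exon of 190 bases that 4 annotated transcripts hold. Those of them annotated as protein-coding do not have the whole exon as coding sequence, and the other types were not checked. The called junction took 11.9%, 19.8% and 20.6% in JVM3, HG3 and MEC1 mutant cells, against 6.94%, 13.3% and 10.3% in the wild-type cells of those lines. Here the intervals were apart in MEC1 alone, the mean change was 7.26 points (adjusted p = 0.0322), and the call was lost without JVM3 (0.0963), HG3 (0.109) or MEC1 (0.35) and in limma (0.313). Its main competitor, chr22:45564127-45567481, which skips the exon, took 80.3% in mutant and 86.4% in wild-type cells. That junction moved by -1.31 points in JVM3, -6.53 in HG3 and -10.3 in MEC1. Inclusion of the exon, from its entry reads and this exit, was 15%, 18.1% and 18.7% in JVM3, HG3 and MEC1 mutant cells. In the wild-type cells of those lines it was 12.3%, 14% and 10.2%. A second donor of this exon, at base 45567033, was read in JVM3 alone, 26 times in mutant and 36 times in wild-type cells. Its share of the acceptor's reads in JVM3 was 6.74% in mutant and 10.4% in wild-type cells.

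Among the 3 genes whose RNA fell, NUP37 and NUP210 thus had a called junction and NUP88 had none at the minimum of 20 reads. The NUP88 junction with the largest mean change, chr17:5302970-5308377 (hg19, minus strand, not annotated), moved by 5.48 points with an adjusted p of 0.0824, and it was called at a minimum of 50 reads (0.0473). Unannotated junctions took 3.28% of the junction reads of NUP35 in mutant and 0% in wild-type cells, and 2.63% of those of NUP210 in mutant and 1.15% in wild-type cells (means of 3 lines). Such a rise was not general. The share was higher in mutant cells in 3 lines for 12 nuclear pore genes, in 2 lines for 13 and in 1 line for 4. For 2 genes it was higher in 0 lines, NUP160 (2.86% in mutant, 3.17% in wild-type cells) and NUP205 (0.458% and 0.724%). The share over all genes is not given here, so these counts cannot be set against it. For POM121 the share was 72% in mutant and 71.9% in wild-type cells, and its junctions were placed on 6 matched introns against 3 for the next best place. The placement of its junctions is therefore uncertain. The next best place was not identified, and whether some of these junctions belong to its copy was not tested.

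The genes that carry cargo through the pore were read against the same 3.69% of all tested genes. At an unadjusted p under 0.05, 11.5% of all tested genes were lower and 10.3% higher. Of 17 importins 0 rose and 1 fell, IPO9 (79.4 CPM in mutant and 108 CPM in wild-type cells, log2 fold change -0.45, adjusted p = 0.024), and KPNA1 came next (-0.26, 0.102). At an unadjusted p under 0.05, 2 importins were higher and 3 lower. Of 7 exportins 0 rose and 1 fell, XPO5, which exports microRNA precursors (121 CPM in mutant and 162 CPM in wild-type cells, -0.42, adjusted p = 0.0274), with XPOT next (-0.25, 0.151), and 2 were lower at an unadjusted p under 0.05. None of the 8 Ran cycle genes passed edgeR's test, at an unadjusted p under 0.05 or by DESeq2, and the 2 with the lowest p were RCC1 (-0.17, adjusted p = 0.251) and RANGAP1 (-0.17, 0.406). Among 18 mRNA export genes 1 rose and 1 fell, with 2 higher and 4 lower at an unadjusted p under 0.05. The one that rose was NXF1, the main mRNA export receptor (59.3 CPM in mutant and 42.1 CPM in wild-type cells, 0.49, adjusted p = 0.0293), and the other was DDX39A (100 CPM in mutant and 130 CPM in wild-type cells, -0.40, adjusted p = 0.0495).

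In the nuclear lamina and envelope list 1 of 14 rose and 1 fell, where 1.83% of all tested genes rose and 1.86% fell. At an unadjusted p under 0.05, 2 were higher and 5 lower, against 10.3% and 11.5% of all tested genes. LMNA, which encodes lamins A and C, rose (488 CPM in mutant and 359 CPM in wild-type cells, 0.52, adjusted p = 0.0415), and SYNE2, which links the envelope to the cytoskeleton, fell (229 CPM in mutant and 324 CPM in wild-type cells, -0.49, adjusted p = 0.0173). Of the other nucleoporin family genes 5 of 10 could be tested and none passed, with 0 at an unadjusted p under 0.05 and 0 by DESeq2. NUP62CL (-0.27, adjusted p = 0.362) and RGPD3 (-0.78, 0.396) had the lowest p by edgeR. NUP62CL had 3 CPM in mutant and 3.65 CPM in wild-type cells. RGPD3 was near the floor, at 0.136 CPM in mutant and 0.234 CPM in wild-type cells, with as few as 2 counts in a library. Without a line, calls were lost for IPO9, NXF1 and DDX39A (any of the 3 lines), XPO5 and SYNE2 (JVM3 or HG3) and LMNA (JVM3 or MEC1), at adjusted p of 0.0538 to 0.161. DDX39A also lost its call without wild-type replicate 1 of MEC1 (0.0526).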

How the data were processed

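RNA was measured by sequencing in 12 libraries, 2 technical replicates for each of 6 groups. The labels' protocols give Trizol extraction of total RNA, depletion of ribosomal RNA and stranded libraries. The tools named in the submitters' processing notes are HTSeq 0.9.1 and STAR 2.5.4b, and the builds are hg19 and GRCh37. The authors deposited raw read counts per gene, and raw junction counts in 1 column per line and status, taken as pooled over replicates. The strand setting of the counting and any filter on junctions are not stated. Entries that name no gene were left out (per library, 17.7% to 24.9% without a feature, 0.897% to 1.06% ambiguous and 29% to 34.9% not uniquely aligned, of all counts in the file).

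Genes were tested with edgeR 4.0.16 in R 4.3.3 (quasi-likelihood F-test, TMM, filterByExpr), with Benjamini-Hochberg adjustment over all 21270 tested genes. Across lines, replicates were summed and the line was a block. Within and between lines, 12 libraries in 6 groups were fitted. Nothing says that replicates came from separate cultures, so these p-values measure only a spread that may be technical. The SE is that of the 3 lines' values.

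Junctions were placed in genes by matching the pattern of introns of GENCODE release 29 to the hg19 junctions, with at least 3 introns and 2 times the next best place, and no coordinates were converted. A junction's coordinates are the exon bases on either side of its intron. Junctions with at least 20 reads, at acceptors with at least 2 junctions, were tested with edgeR's diffSpliceDGE, which sets each junction against its whole acceptor, so that a dominant junction seldom passes. Wilson intervals (95%) and the floor of 3 counts cover counting error only.

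The members, gene lists and tests were chosen with earlier results of these data known. Members were given in full if called across lines, called in at least 2 lines with the same sign, or lowest in p of their place in the pore. Alternatives were DESeq2 1.42.0, limma 3.58.1 for junctions, other size factors, no filter, unsummed libraries, a replicate block, a minimum of 50 reads, grouping by donor, and leaving out lines or libraries. The fits were tested on simulated data.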

Additional observations from a re-analysis of the deposited data

Results flagged for a closer look

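The response to mutant U1 differed between the 3 lines for 18 nuclear pore genes by edgeR's interaction test over technical replicates, where 32% of all tested genes passed. The adjusted p was 1.23e-09 for NUP37, 3.87e-09 for NUP62, 1.64e-05 for NUP160, 2.95e-05 for NUP58, 3.56e-05 for NDC1, 6.13e-05 for NUP85, 0.000336 for RANBP2 and 0.000362 for NUP205. It was 0.00645 for NUP42, 0.00745 for NUP210, 0.00933 for NUP50, 0.0131 for POM121, 0.0185 for NUP88 and 0.0249 for RAE1. The values nearest the threshold were 0.0323 for NUP107, 0.0368 for SEC13, 0.046 for NUP35 and 0.0467 for SEH1L. For NUP37, NUP210, NUP88, NDC1, NUP205 and NUP50 the log2 fold change was negative in each of the 3 lines and lowest in HG3. NUP62, NUP58 and NUP85 fell in HG3 and rose in MEC1 by the within-line tests. RANBP2 and NUP42 had their highest log2 fold change in HG3, at 0.26 and 0.17, and NUP160 and RAE1 in MEC1, at 0.32 and 0.46.

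Leaving out 1 library ended the interaction call for SEH1L (6 of the 12 libraries, adjusted p up to 0.244), NUP35 (5, up to 0.188), NUP107 (4, up to 0.135), SEC13 (3, up to 0.148), RAE1 (3, up to 0.108), NUP88 (3, up to 0.0662), NUP42 (2, up to 0.118), NUP210 (2, up to 0.0773) and POM121 (1, 0.07). The other 9 calls held without any 1 library.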

How the results depend on the processing

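Across lines 3 nuclear pore genes were called, and 5 with DESeq2 (1 rose, 4 fell), 15 with 12 unsummed libraries (3 rose, 12 fell) and 15 with the replicate block added to them (4 rose, 11 fell). Unsummed fits treat technical replicates as independent. With a line or a library left out the count ran from 1 to 4, and it was 1 whichever of the 3 lines was left out. Over all genes 784 were called, and 1319 with DESeq2, 2540 with no filter, 6641 unsummed and 6514 with the block. Without JVM3 380 genes were called, without HG3 320 and without MEC1 341. With single libraries left out, the within-line counts of members ran from 6 to 11 for JVM3 (10 with all), 17 to 24 for HG3 (22) and 16 to 20 for MEC1 (20). The interaction gave 18 (13 to 20) and the wild-type lines 30 (30 to 31). The JVM3 count was 6 without its mutant replicate 1 or wild-type replicate 2. Replicate numbers did not pair the libraries by the rule used, with correlations of deviations from 0.02 to 0.19 over the pairs of groups. Junction calls numbered 7, and 2 with limma (1 used more, 1 less, both of the same NUP35 acceptor), with 2 to 5 over left-out lines. Grouped by donor there were 5, with none in SEC13 or NUP50 and no share of all junctions to set beside them. Of all junctions 998 were called, and 291 with limma, 536 without HG3 and 569 without MEC1. At a minimum of 50 reads 7 were called as well, with the NUP35 and NUP155 junctions not tested and 1 junction each of NUP88 (adjusted p = 0.0473) and SEC13 (0.0498) added.

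Over all alternatives, 3186 values of single genes, junctions and whole tables kept their direction and their side of the threshold, 128 no longer passed, 93 came to pass and 34 turned direction. None of the log2 fold changes that turned had passed its test. Across lines, over left-out lines and libraries, NUP42 ran from -0.07 to 0.05 (-0.07 without HG3, -0.01 with DESeq2 and -0.01 with no filter) and NUP214 from -0.01 to 0.03 (0.00 with DESeq2 after rounding, -0.01 with no filter). NUP62 ran from -0.03 (without MEC1) to 0.26, NUP35 from -0.01 (without MEC1) to 0.12, NUP58 from -0.14 to 0.01 (without HG3), NUP85 from -0.13 to 0.05 (without HG3) and SEC13 from -0.06 to 0.03 (without HG3). For JVM3, SEH1L ran from -0.10 to 0.00, GLE1 from -0.06 to 0.00, NUP214 from -0.09 to 0.02 and AAAS from -0.01 to 0.06. For HG3, NUP93 ran from -0.03 to 0.00 and NUP214 from -0.03 to 0.06 (0.00 with no filter after rounding). For MEC1, NUP107 ran from -0.09 to 0.03, NUP153 from -0.06 to 0.02, RANBP2 from -0.04 to 0.10 and SEC13 from -0.04 to 0.10. The cause was not tested. Few reads limit the single junctions, and 3 lines limit the tests across lines.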
